A study of Mus musculus with 7 samples.

Results

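The genes described here encode Wnt ligands, the proteins that release and bind them, their secreted and intracellular inhibitors and the TCF/LEF factors at the end of the pathway. They were taken by gene symbol from the 24346 genes of the expression table, which gave 63 genes: 19 Wnt ligands, 2 genes of ligand secretion, 15 receptors and co-receptors, 9 genes of the R-spondin axis, 10 secreted inhibitors, 4 intracellular feedback inhibitors and 4 TCF/LEF factors. RNA of primary hippocampal neurospheres, free-floating cultures of neural stem and progenitor cells with their progeny, was measured in 7 libraries, each from a single C57/BL6 mouse. The 3 Med23 CKO mice (KO_117, KO_214 and KO_218) carried Nestin-CreER, a tamoxifen-dependent Cre driven by Nestin, and homozygous floxed Med23, which encodes a subunit of the Mediator complex. The 4 control mice (WT_215, WT_116, WT_213 and WT_220) were Med23 flox/+ or Med23 flox/flox littermates without Cre, so effects of the Cre and of the deletion cannot be told apart. All mice received tamoxifen at 200 mg/kg daily by oral gavage for 5 days, and the labels give an age of 2 months, whereas the methods of the study place the tamoxifen at an earlier age for cultures. Expression is given as FPKM, fragments scaled to the length of the transcript and to the size of the library. How the library size was estimated is not given in the sources used here. Differences between groups are differences in mean log2(FPKM + 1), Med23 CKO minus control, a scale that understates the change of low genes.

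Wnt proteins are lipid-modified signals that Frizzled receptors bind together with the co-receptors Lrp5 and Lrp6. In the canonical branch, binding stops the degradation of beta-catenin, which then joins TCF/LEF factors on target genes, among them inhibitors such as Axin2 that feed back on the pathway. In the adult hippocampus, Wnt signals from astrocytes and from the stem cells themselves are known to act on the proliferation of neural progenitors and their neuronal differentiation, and secreted Sfrp and Dkk proteins limit them.

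Med23 was measured at 10.1 to 12.9 FPKM in the controls and at 8.12 to 9.97 FPKM in Med23 CKO libraries (log2 difference -0.26, standard error 0.18, two-sided exact permutation test, p = 0.0571). The value covers the whole gene and does not separate the floxed exons. The libraries were not alike in cell content. The summed FPKM of 12 microglial markers was 702 in KO_214 and 39.2 to 193 in the other 6 libraries, that of 10 mural cell and fibroblast markers was 543 in KO_214 and 11.8 to 124 elsewhere, and that of 10 endothelial markers was 149 in KO_214 and 15.0 to 87.9 elsewhere. The summed FPKM of 8 choroid plexus and ependymal markers was 659 in control WT_215 and 10.4 to 73.6 elsewhere, most of it from Ttr (630 FPKM in WT_215). Neural stem cell markers were present in every library, with Nes at 61.1 to 240 FPKM and Sox2 at 69.4 to 194 FPKM. The summed FPKM of 10 oligodendrocyte lineage markers was 2280 to 5460, and these markers did not run alike. Mbp was lowest in KO_117 (66.5 FPKM) and highest in WT_116 (2230 FPKM), whereas Olig1 was at 1590 FPKM in KO_117 and 437 FPKM in WT_116. In bulk RNA of this kind, fewer cells of a type and less RNA per cell cannot be told apart.

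Of the 63 genes, 41 had a mean of at least 0.5 FPKM over the 7 libraries and were tested, among 14151 genes in all. Of these 41, 39 reached 0.5 FPKM in the mean of each group, and Lgr5 and Lgr6 did so only in control. The other 22 were 12 ligands and 10 further genes, of which 13 stayed under 0.5 FPKM in every library and Dkk4 was listed at 0 in all of them. Per transcript length and averaged over the 7 libraries, the highest FPKM belonged to Wls (41.2), Ryk (31.5), Fzd1 (28.1), Fzd9 (17.1) and Wnt7b (14.8).

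**Figure D1:**
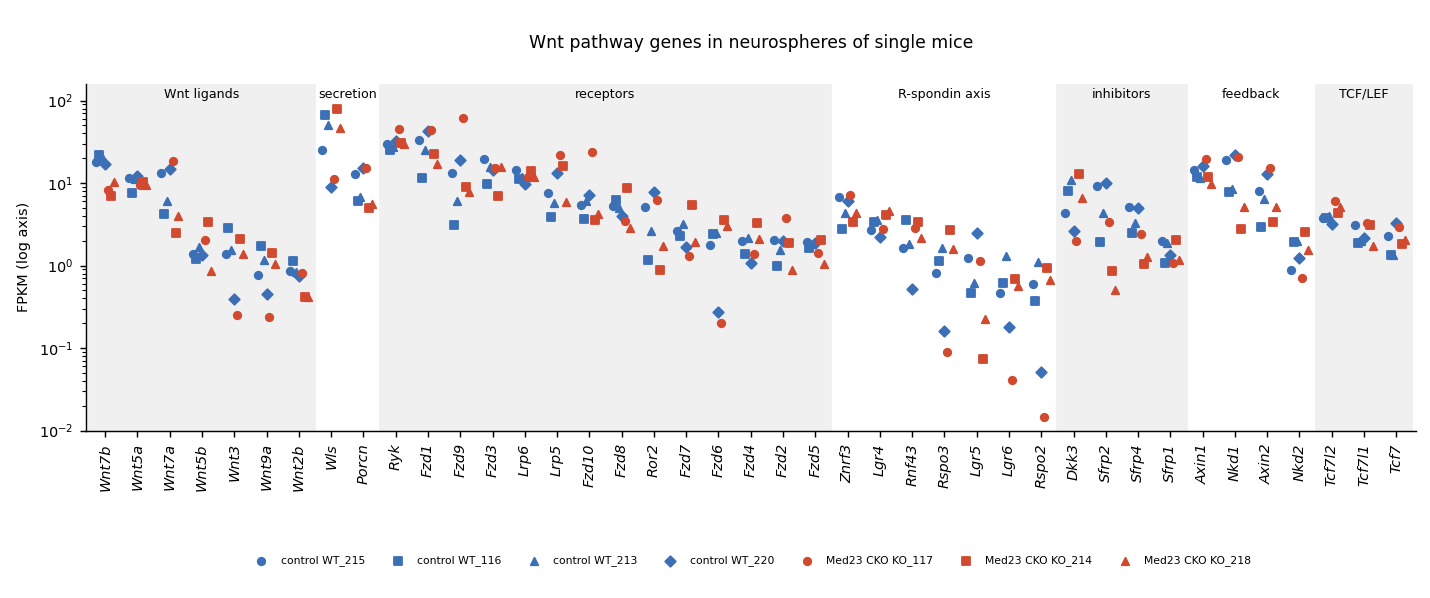
FPKM on a log axis of the 41 tested genes in each library, grouped by role, with blue symbols for the 4 control and red symbols for the 3 Med23 CKO libraries. Wnt7b has all red points (6.93 to 10.4 FPKM) below all blue points (17.1 to 21.6 FPKM), while Wls spreads from 9.08 to 78.4 FPKM over the libraries without a separation by group.

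No gene passed Benjamini-Hochberg adjustment over the 14151 genes in limma's moderated test, so 0 of the 41 genes were lower and 0 higher at an adjusted p under 0.05, where the background was 0.0% of all genes in each direction. At an unadjusted p under 0.05, 3 of the 41 genes (7.32%) were lower in Med23 CKO, Wnt7b, Sfrp4 and Sfrp2, against 141 of all genes (0.996%), and 0 were higher, against 71 of all genes (0.502%). All 3 Med23 CKO values lay below all 4 control values for Wnt7b and Sfrp4 (4.88% of the 41 genes, 1.53% of all genes) and above them for Tcf7l2 (2.44% of the 41 genes, 0.784% of all genes). In the remaining 38 genes the groups overlapped. The median log2 difference of the 41 genes was -0.0015, with 20 positive and 21 negative differences, and that of all genes tested was -0.0312. Wnt7b, Wnt8b, Sfrp2, Sfrp4 and Sfrp5 were picked out by the study from these same libraries, so their direction here is not independent evidence.

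**Figure D2:**
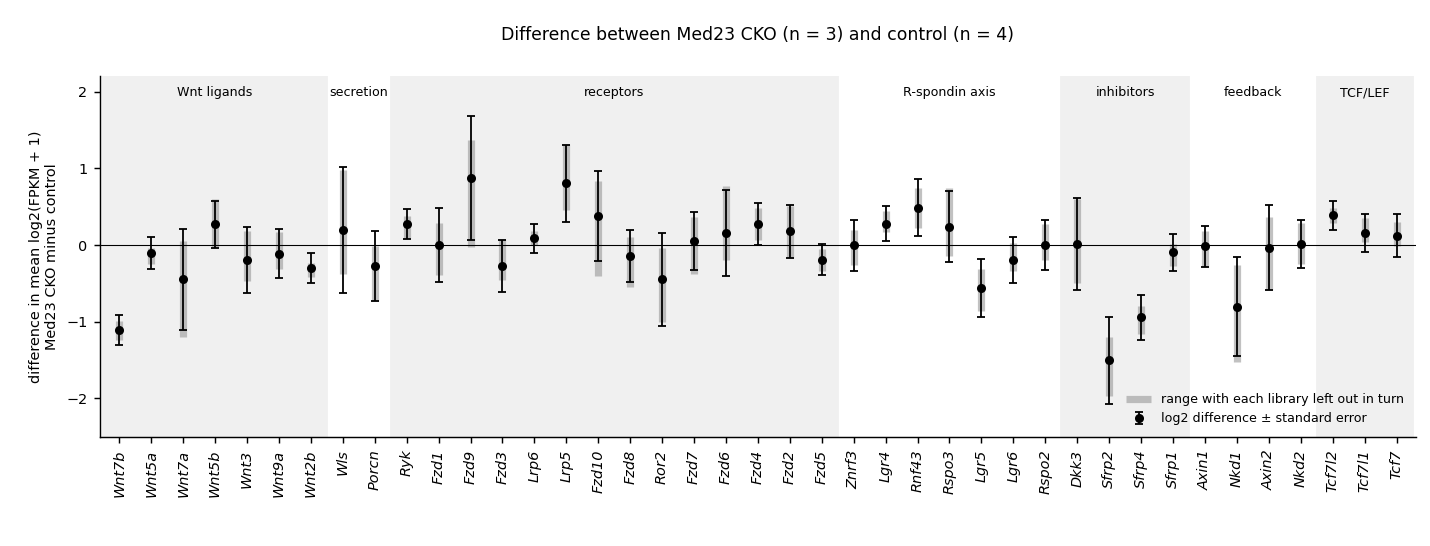
Difference in mean log2(FPKM + 1) between Med23 CKO (n = 3) and control (n = 4) for the 41 tested genes, with bars for the standard error and grey bands for the range when each library is left out in turn. Wnt7b (-1.11), Sfrp2 (-1.50) and Sfrp4 (-0.94) lie below 0 with their whole bands, and most other genes have a standard error or a band that crosses 0.

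Among the ligands, Wnt7b, a canonical Wnt of the developing forebrain that also acts on brain vessels, was lower in Med23 CKO. It was measured at 18.2, 21.6, 20.9 and 17.1 FPKM in control WT_215, WT_116, WT_213 and WT_220, and at 8.33, 6.93 and 10.4 FPKM in Med23 CKO KO_117, KO_214 and KO_218. The groups did not overlap, and the highest Med23 CKO value was well under the lowest control value. The mean was 19.4 ± 2.15 FPKM (SD, n = 4) for control mice and 8.54 ± 1.72 FPKM (SD, n = 3) for Med23 CKO mice, 0.439 times the control mean. The log2 difference was -1.11 (standard error 0.19), with an unadjusted p of 0.00055 and an adjusted p of 1.0 from limma. The exact permutation test gave a two-sided p of 0.0286, the smallest that the 35 ways to choose 3 of 7 libraries allow. Leaving out single libraries moved the log2 difference of Wnt7b between -1.24 and -0.98, and it was -0.98 without KO_214, the library rich in microglial and mural markers. Wnt7b lies on chromosome 15, from 85535437 to 85581821 of GRCm38.p6, and shares 680 bases with the noncoding gene AU022754. Whether reads were counted by strand is not given in the sources used here, so reads of the shared stretch cannot be told apart.

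Wnt7a, the closest relative of Wnt7b, did not show this pattern. This gene was chosen for description after its values were seen, as were Wnt2b, Fzd9, Lrp5 and the further genes of the plot ordered by cell cycle genes. Wnt7a was measured at 13.1, 4.17, 6.10 and 14.9 FPKM in the control libraries in the same order and at 18.6, 2.48 and 4.00 FPKM in Med23 CKO. KO_117 held the highest of the 7 values and the other 2 Med23 CKO libraries the lowest, so the groups overlapped (log2 difference -0.45, standard error 0.66). Without KO_117 the log2 difference of Wnt7a was -1.19, and without KO_214 it was 0.06. The ratio of Wnt7a to Wnt7b was 0.722, 0.193, 0.292 and 0.875 in control and 2.24, 0.358 and 0.386 in Med23 CKO. Only in KO_117 was Wnt7a the higher of the pair, and the ratios of KO_214 and KO_218 lay within the control range.

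Wnt5a, the main non-canonical ligand, was measured at 11.6, 7.59, 11.3 and 12.1 FPKM in control mice and at 9.54, 10.2 and 9.41 FPKM in Med23 CKO. The Med23 CKO values lay inside the control range (log2 difference -0.10, standard error 0.21). The remaining tested ligands were low, with means over the 7 libraries between 0.746 FPKM for Wnt2b and 1.70 FPKM for Wnt5b. Wnt2b had 0.862, 1.12, 0.844 and 0.753 FPKM for the controls and 0.811, 0.418 and 0.412 FPKM in Med23 CKO, and only KO_117 reached the control range (log2 difference -0.30, standard error 0.19, two-sided exact permutation test, p = 0.0571). Wnt2b shares 4524 bases with the protein-coding gene St7l, whose reads cannot be told apart there without strand. Wnt3, Wnt5b and Wnt9a had log2 differences of -0.19, 0.27 and -0.11, each smaller than its standard error. Wnt3 shares 1098 bases with Wnt9b, which was at most 0.0638 FPKM. Wnt5b shares 4219 bases with Fbxl14 and 6410 bases with Gm52875, both protein-coding, whose reads cannot be told apart there without strand either.

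Of the ligands below the filter, Wnt2, a canonical ligand, was measured at 0.520, 0.585, 0.345 and 0.750 FPKM across controls and at 0.172 and 0.255 FPKM in KO_117 and KO_214, and was listed at 0 in KO_218. All Med23 CKO values lay below all control values, at levels where the number of reads behind a value is unknown. Wnt2 is outside the counts of separated groups given above, as is Dkk1, described below. How often groups separate among genes below the filter was not determined. Wnt8b, a marker of the medial pallium from which the hippocampus forms, had 0.303, 0.764, 0.715 and 0.130 FPKM in control, was listed at 0 in KO_117, and had 0.274 and 0.0544 FPKM in KO_214 and KO_218. Its groups overlapped, with control WT_220 among the low libraries. Wnt1, Wnt3a, Wnt6, Wnt8a, Wnt10a, Wnt10b, Wnt11, Wnt16 and Wnt9b stayed at or below 0.285 FPKM in every library, and Wnt4 was at 0.212 to 0.661 FPKM.

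Summed over the 19 ligands, FPKM came to 48.6, 42.7, 45.9 and 48.4 in control and to 40.7, 28.6 and 28.1 in Med23 CKO, and no Med23 CKO sum reached a control sum. Without Wnt7b the sums were 30.4, 21.1, 25.0 and 31.4 in control and 32.4, 21.6 and 17.7 in Med23 CKO, and the groups overlapped. Wnt7b made up 35.2% to 50.6% of the summed ligand FPKM in the controls and 20.5%, 24.3% and 36.9% in KO_117, KO_214 and KO_218, the last of them inside the control range.

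**Figure D3:**
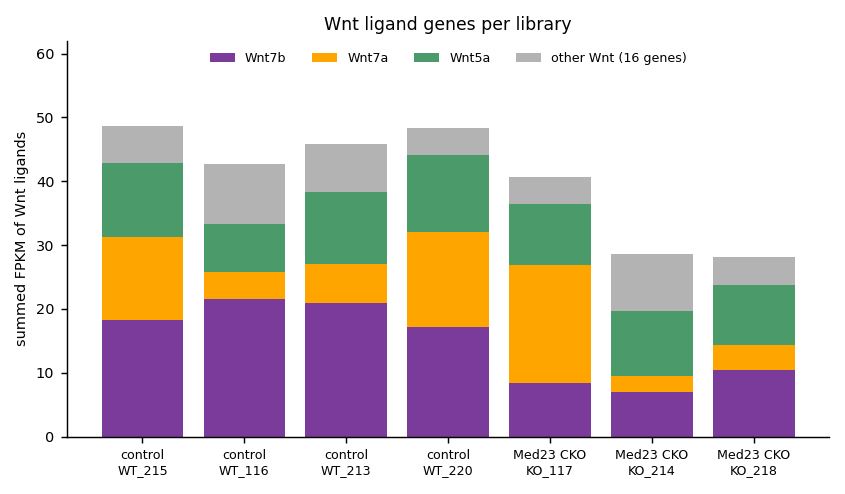
Summed FPKM of the 19 Wnt ligand genes in each library, stacked as Wnt7b, Wnt7a, Wnt5a and the other 16 genes. The total lies between 42.7 and 48.6 in the control libraries and between 28.1 and 40.7 in the Med23 CKO libraries, and the Wnt7b segment is shorter in each Med23 CKO library than in each control library.

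The genes that ligand release needs varied between libraries but not by group. Wls, the carrier that brings Wnt proteins to the cell surface, was measured at 25.4, 66.9, 51.1 and 9.08 FPKM in control mice and at 11.1, 78.4 and 46.6 FPKM in Med23 CKO. Porcn, the acyltransferase that attaches the lipid, was measured at 12.8, 6.0, 6.69 and 15.3 FPKM for the controls and at 15.2, 5.01 and 5.64 FPKM in Med23 CKO. In both genes the groups overlapped over nearly the whole range, with log2 differences of 0.20 (standard error 0.82) for Wls and -0.28 (standard error 0.45) for Porcn. The libraries with high Wls had low Porcn, in both groups.

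Of 15 receptors and co-receptors, 14 were tested, 10 had a positive and 4 a negative log2 difference, and none passed an unadjusted p of 0.05 in limma. Ryk, a receptor-like pseudokinase that binds Wnt5a, was measured at 30.0, 25.1, 27.0 and 32.2 FPKM across controls and at 45.2, 30.8 and 29.8 FPKM in Med23 CKO, with only KO_117 above the control range (log2 difference 0.27, standard error 0.20). Fzd1 was measured at 33.4, 11.6, 25.5 and 42.5 FPKM in the controls and at 44.4, 22.3 and 16.8 FPKM in Med23 CKO, with overlapping groups (log2 difference 0.00, standard error 0.48). The largest positive log2 differences were those of Fzd9 and Lrp5. Fzd9, a Frizzled known from the hippocampus, had 13.4, 3.09, 6.11 and 19.3 FPKM in control mice and 60.7, 9.08 and 7.82 FPKM in Med23 CKO. Its log2 difference of 0.88 (standard error 0.81) rested on KO_117 and was -0.03 without that library. Lrp5 had 7.61, 3.88, 5.74 and 13.3 FPKM for the controls and 21.8, 16.3 and 5.88 FPKM in Med23 CKO, high in KO_117 and KO_214 and within the control range in KO_218 (log2 difference 0.81, standard error 0.50). Its close relative Lrp6 was even across libraries, from 9.83 to 14.5 FPKM (log2 difference 0.09, standard error 0.19). Fzd10 was at 24.1 FPKM in KO_117 and between 3.54 and 7.23 FPKM in the other 6 libraries. Ror2, a Wnt5a receptor, ranged from 0.883 to 7.83 FPKM with overlapping groups, and the related Ror1 was below the filter, with its highest value (1.06 FPKM) in KO_214. Fzd3, a Frizzled of planar cell polarity and axon guidance, was at 6.95 to 19.7 FPKM and Fzd8 at 2.85 to 8.65 FPKM. The remaining Frizzled genes (Fzd2, Fzd4, Fzd5, Fzd6 and Fzd7) lay between 0.201 and 5.47 FPKM, and their log2 differences lay between -0.19 for Fzd5 and 0.28 for Fzd4, with overlapping groups. Fzd4 shares 338 bases with the protein-coding gene Tmem135.

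In the R-spondin axis, Rnf43 and Znrf3 are ubiquitin ligases that remove Frizzled receptors from the cell surface, and R-spondins bind Lgr4, Lgr5 or Lgr6 to hold them off. Of 9 genes, 7 were tested, 3 had a positive and 4 a negative log2 difference, and none passed an unadjusted p of 0.05 in limma. Lgr5 and Lgr6, among the negative ones, reached 0.5 FPKM only in the control mean, so the filter favors a negative sign for them. Znrf3 was measured at 6.69, 2.75, 4.37 and 6.08 FPKM across controls and at 7.20, 3.39 and 4.28 FPKM in Med23 CKO, which gave a log2 difference of 0.00 (standard error 0.33). Rnf43 was measured at 1.64, 3.55, 1.82 and 0.524 FPKM in the controls and at 2.87, 3.37 and 2.15 FPKM in Med23 CKO, all of them inside the control range (log2 difference 0.49, standard error 0.37). Lgr4 was measured at 2.69, 3.35, 3.58 and 2.2 FPKM in control mice and at 2.81, 4.12 and 4.53 FPKM in Med23 CKO, so that KO_214 and KO_218 were above the control range (log2 difference 0.28, standard error 0.23). Lgr5, a stem cell marker and Wnt target in several epithelia, had 1.22, 0.470, 0.614 and 2.49 FPKM for the controls and 1.13, 0.0732 and 0.222 FPKM in Med23 CKO. KO_214 and KO_218 were the lowest of the 7 libraries for Lgr5, and KO_117 lay inside the control range (log2 difference -0.56, standard error 0.38). Lgr5 shares 12469 bases with the gene A930009A15Rik. Rspo3 was the highest R-spondin, at 0.0891 to 2.69 FPKM, with the highest value in KO_214. Rspo2 and Lgr6 were at 0.0146 to 1.32 FPKM with overlapping groups, and Rspo1 and Rspo4, below the filter, did not exceed 0.360 FPKM.

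Secreted inhibitors held both of the lower genes other than Wnt7b. Sfrp proteins carry a Frizzled-like domain and bind Wnt ligands outside the cell. Sfrp4 was measured at 5.17, 2.50, 3.25 and 4.96 FPKM in control WT_215, WT_116, WT_213 and WT_220, and at 2.43, 1.05 and 1.27 FPKM in Med23 CKO KO_117, KO_214 and KO_218. The groups did not overlap, but the highest Med23 CKO value and the lowest control value lay close together. The mean was 3.97 ± 1.30 FPKM (SD, n = 4) for control mice and 1.58 ± 0.741 FPKM (SD, n = 3) for Med23 CKO mice. The log2 difference of Sfrp4 was -0.94 (standard error 0.30), with an unadjusted p of 0.0145 and an adjusted p of 1.0 from limma, and with a two-sided p of 0.0571 in the exact permutation test. It ranged from -1.16 to -0.79 with each library left out in turn.

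Sfrp2 was measured at 9.29, 1.93, 4.35 and 10.1 FPKM across controls and at 3.37, 0.851 and 0.507 FPKM in Med23 CKO. The groups overlapped, since control WT_116 was below KO_117. The mean was 6.42 ± 3.93 FPKM (SD, n = 4) for control mice and 1.58 ± 1.56 FPKM (SD, n = 3) for Med23 CKO mice. The log2 difference was -1.50 (standard error 0.57), with an unadjusted p of 0.0312 and an adjusted p of 1.0 from limma, and the exact permutation test gave a two-sided p of 0.114. Without WT_215, WT_220, KO_214 or KO_218 the unadjusted p of Sfrp2 was 0.0774, 0.0756, 0.0893 or 0.114 in limma. Sfrp5, below the filter, had 0.512, 0.198 and 2.55 FPKM in control WT_215, WT_213 and WT_220 and was listed at 0 in WT_116, while the Med23 CKO values were 0.0817 and 0.0331 FPKM in KO_117 and KO_214 and 0 in KO_218. Sfrp1 was at 1.06 to 2.04 FPKM with overlapping groups (log2 difference -0.10, standard error 0.24). The summed FPKM of the 4 Sfrp genes was 16.9, 5.51, 9.69 and 19.0 in control and 6.94, 3.97 and 2.93 in Med23 CKO, with WT_116 below KO_117.

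The Dkk genes, whose products bind Lrp5 and Lrp6 except for the divergent Dkk3, did not separate the groups at measurable levels. Dkk3 was measured at 4.38, 8.02, 10.9 and 2.61 FPKM in the controls and at 1.97, 12.8 and 6.68 FPKM in Med23 CKO, with overlapping groups (log2 difference 0.01, standard error 0.60). Dkk1 was listed at 0 in the 4 control libraries and at 0.0222, 0.0625 and 0.0581 FPKM in Med23 CKO, all under 0.1 FPKM. Dkk2 and Wif1, another secreted Wnt-binding inhibitor, had their highest values in KO_214, at 0.622 and 1.01 FPKM. Notum, the enzyme that removes the lipid of Wnt proteins and a target gene, had 0.653, 0.553, 0.454 and 0.140 FPKM in control mice and 0.136, 0.906 and 0.233 FPKM in Med23 CKO.

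**Figure D4:**
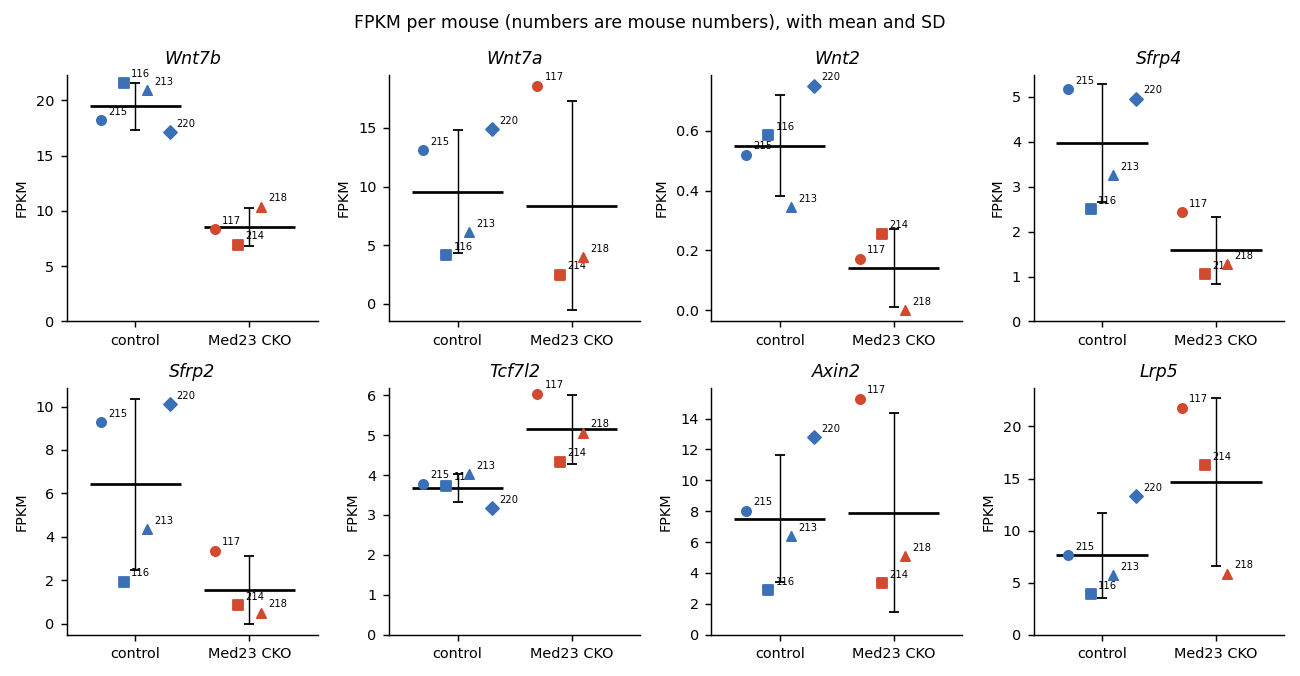
FPKM of 8 genes in each mouse, with mouse numbers beside the points, a line at the group mean and a bar for the SD (control n = 4, Med23 CKO n = 3). Wnt7b, Sfrp4 and Wnt2, the last of them below the filter, have every Med23 CKO mouse below every control mouse. Tcf7l2 has every Med23 CKO mouse above every control mouse, while mouse KO_117 is the highest of all 7 for Wnt7a, Axin2 and Lrp5.

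The intracellular feedback inhibitors, some of which canonical signaling is known to induce, gave no common direction. Axin2, a scaffold of the beta-catenin destruction complex and the most used Wnt target, was measured at 8.03, 2.90, 6.37 and 12.8 FPKM for the controls and at 15.3, 3.35 and 5.10 FPKM in Med23 CKO. KO_117 was the highest and control WT_116 the lowest library, and the log2 difference was -0.03 (standard error 0.56). Nkd1, an inhibitor of Dishevelled, was measured at 18.9, 7.74, 8.44 and 22 FPKM across controls and at 20.9, 2.78 and 5.17 FPKM in Med23 CKO. KO_214 and KO_218 were the lowest libraries for Nkd1 and KO_117 was among the highest (log2 difference -0.80, standard error 0.64). Without KO_117 the log2 difference of Nkd1 was -1.53 (unadjusted p of 0.0154 from limma), and without KO_214 it was -0.26. Axin1, the constitutive scaffold, was measured at 14.6, 11.9, 11.5 and 16.1 FPKM in the controls and at 19.8, 12 and 9.74 FPKM in Med23 CKO (log2 difference -0.01, standard error 0.27). Nkd2, the paralog of Nkd1, was at 0.713 to 2.56 FPKM with overlapping groups (log2 difference 0.01, standard error 0.31). Of the feedback inhibitors, 1 had a positive and 3 a negative log2 difference.

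All 3 tested TCF/LEF genes had a positive log2 difference. Tcf7l2, the most abundant of them, was measured at 3.78, 3.73, 4.02 and 3.17 FPKM in control mice and at 6.04, 4.33 and 5.06 FPKM in Med23 CKO. Every Med23 CKO value was above every control value, with means of 3.68 ± 0.360 FPKM (SD, n = 4) for control mice and 5.14 ± 0.857 FPKM (SD, n = 3) for Med23 CKO mice. The log2 difference was 0.39 (standard error 0.19), with an unadjusted p of 0.0807 and an adjusted p of 1.0 from limma, and the exact permutation test gave the smallest possible two-sided p, 0.0286. Leaving out each library in turn gave log2 differences of 0.28 to 0.48. Tcf7l1, mostly a repressor, was measured at 3.13, 1.89, 1.99 and 2.14 FPKM for the controls and at 3.26, 3.07 and 1.73 FPKM in Med23 CKO, and Tcf7 at 2.29, 1.36, 1.36 and 3.29 FPKM across controls and at 2.96, 1.84 and 2.05 FPKM in Med23 CKO. Both had overlapping groups, with log2 differences of 0.15 (standard error 0.25) and 0.12 (standard error 0.28). Lef1, below the filter, had 0.256, 0.475, 0.760 and 0.0785 FPKM in the controls and 0.102, 0.950 and 0.480 FPKM in Med23 CKO. Tcf7l2 shares 1407 bases with the gene Gm31734, and Tcf7 shares 332 bases with the protein-coding gene Skp1.

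The sequence before the start site is shown for Sfrp2 and Tcf7l2, as genes named above on either side of the comparison, and for Axin2, as the standard target gene. RefSeq windows on GRCm38.p6 were at hand for 42 of the 63 genes (51 windows), without Wnt7b and Sfrp4. Each run is the 250 bases before the listed start on the + strand and holds 0 bases of GENCODE M21 exons, at chr3:83766071-83766320 for Sfrp2, chr19:55741560-55741809 for Tcf7l2 and chr11:108920099-108920348 for Axin2. The Sfrp2 and Axin2 windows lie within the span RefSeq gives for the gene, which begins further upstream. Capitals mark the GC box GGGCGG on either strand, the element that Sp1 family factors bind.
Sfrp2: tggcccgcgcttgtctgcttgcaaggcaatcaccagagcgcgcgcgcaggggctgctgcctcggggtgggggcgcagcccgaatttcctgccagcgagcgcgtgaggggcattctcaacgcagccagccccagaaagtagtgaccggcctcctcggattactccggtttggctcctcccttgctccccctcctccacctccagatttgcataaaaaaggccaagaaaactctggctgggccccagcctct
Tcf7l2: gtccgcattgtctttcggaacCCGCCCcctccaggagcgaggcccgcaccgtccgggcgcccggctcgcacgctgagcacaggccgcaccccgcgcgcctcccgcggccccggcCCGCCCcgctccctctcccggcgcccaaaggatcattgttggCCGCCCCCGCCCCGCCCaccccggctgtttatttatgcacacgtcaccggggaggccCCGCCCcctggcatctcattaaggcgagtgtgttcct
Axin2: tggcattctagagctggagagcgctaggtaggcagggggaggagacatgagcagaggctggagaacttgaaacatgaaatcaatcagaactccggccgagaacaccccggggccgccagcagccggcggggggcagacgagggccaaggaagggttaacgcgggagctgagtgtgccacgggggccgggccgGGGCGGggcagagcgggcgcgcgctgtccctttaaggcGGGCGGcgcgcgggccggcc

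The GC box was found 6 times in the Tcf7l2 window, 2 times in the Axin2 window and 0 times in the Sfrp2 window. It was present in 35 of the 51 windows and in 32.7% of all 32851 windows of this length. The TCF/LEF core CTTTGA was present in 6 of the 51 windows (13.8% of all), the ETS core CCGGAA in 4 (12% of all) and the Egr site GCGTGGGCG in 1 (0.536% of all), on either strand, and none of these letters occurred in the printed windows. The windows to print and the GC box were settled after the matches were seen, and nothing is read from their counts.

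Many of the genes were ordered across libraries in a way that crossed the groups. WT_215, WT_220 and KO_117 held the 3 highest values for 12 of the 41 genes (29.3%), among them Axin2, Nkd1, Wnt7a, Fzd1, Fzd9, Porcn and Znrf3, against 26.2% of all genes tested. The same 3 libraries held the 3 lowest values for 8 genes (19.5%), Wls, Dkk3, Rspo3, Fzd6, Wnt9a, Lgr4, Lgr6 and Nkd2, against 23.6% of all genes. This order was therefore about as frequent among all genes as among these. The summed FPKM of 12 cell cycle genes was 1020, 377, 552 and 1040 in the control libraries, in the order given above, and 1370, 239 and 663 in KO_117, KO_214 and KO_218, so that the same 3 libraries were highest. With the cell cycle list as a covariate, an alternative chosen after the data were seen, the log2 difference was -1.10 for Wnt7b, -0.83 for Sfrp4, -1.29 for Sfrp2 and 0.41 for Tcf7l2. For Axin2, Nkd1 and Porcn, which were highest in WT_215, WT_220 and KO_117, it was 0.21, -0.52 and -0.09. For Wls, which was lowest in the same libraries, it was -0.15.

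**Figure D5:**
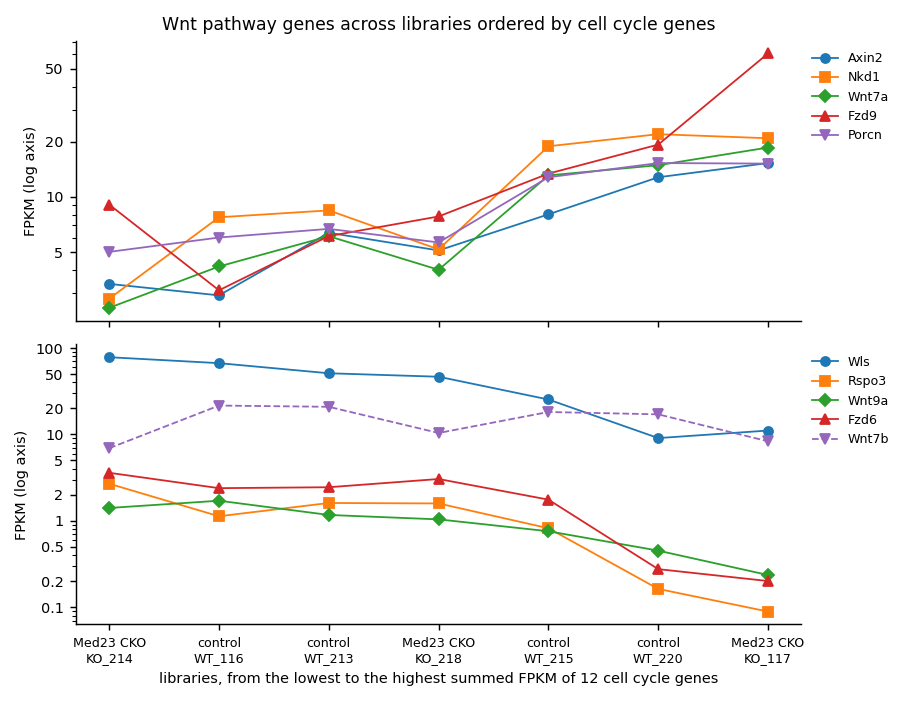
FPKM on log axes of 10 genes in the 7 libraries, ordered from the lowest to the highest summed FPKM of 12 cell cycle genes (239 in KO_214 to 1370 in KO_117), with lines joining the values of a gene. Axin2, Nkd1, Wnt7a, Fzd9 and Porcn are highest in the 3 libraries on the right and Wls, Rspo3, Wnt9a and Fzd6 lowest there, whereas Wnt7b (dashed) is low in the 3 Med23 CKO libraries at both ends and in the middle.

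Other genes of the pathway, 91 in number, were followed as lists of beta-catenin, planar cell polarity, cell surface and target genes. The table held 90 of them and 82 were tested, with 26 positive and 56 negative log2 differences and a median of -0.0566, beside 6196 positive and 7955 negative differences among all genes tested. By list, 5 of the 17 tested target genes had a positive and 12 a negative difference, with a median of -0.0594. Among the beta-catenin genes 6 were positive and 27 negative. Planar cell polarity genes gave 4 positive and 11 negative differences, and cell surface genes 11 positive and 6 negative. At an unadjusted p under 0.05 in limma, 1 was higher and 1 lower, against 0.502% and 0.996% of all genes, and none passed adjustment. Groups did not overlap for 2 of the 82 with Med23 CKO above control and for 1 with Med23 CKO below, against 0.784% and 1.53% of all genes. Jag1, a Notch ligand and reported Wnt target, was measured at 16.0, 15.4, 19.8 and 10.6 FPKM in control mice and at 26.5, 36.2 and 28.5 FPKM in Med23 CKO, with every Med23 CKO value above every control value (log2 difference 0.95, standard error 0.24, unadjusted p of 0.00442 and adjusted p of 1.0 from limma). Tnfrsf19, a receptor of the tumor necrosis factor family and target gene, was measured at 22, 13.1, 18.3 and 19.3 FPKM for the controls and at 11.4, 11.1 and 14 FPKM in Med23 CKO, where KO_218 was above control WT_116 (log2 difference -0.53, standard error 0.21, unadjusted p of 0.0420 and adjusted p of 1.0 from limma). Gpc6 and Cby1 are given because their groups did not overlap. Gpc6, a glypican, was at 3.12 to 5.93 FPKM across controls and 6.29 to 9.95 FPKM in Med23 CKO (log2 difference 0.56, standard error 0.26, unadjusted p of 0.0678 from limma). Cby1, an antagonist of beta-catenin, was at 40.0 to 55.5 FPKM in the controls and 33.4 to 37.1 FPKM in Med23 CKO (log2 difference -0.34, standard error 0.17, unadjusted p of 0.0787 from limma). Ctnnb1, which encodes beta-catenin, had a log2 difference of 0.13 (standard error 0.19). The target genes Ccnd1 and Myc had log2 differences of -0.57 (standard error 0.25) and -0.74 (standard error 0.61) with overlapping groups, and Neurod1, a neurogenic target, of -0.31 (standard error 0.39). Reck and Adgra2, which encode the cell surface partners through which Wnt7a and Wnt7b are received, had log2 differences of 0.19 (standard error 0.27) and 0.00 (standard error 0.31).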

How the data were processed

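RNA of primary neurospheres from single mice was sequenced with the NEBNext Ultra RNA kit on Illumina HiSeq. The authors trimmed adapters from the reads with cutadapt, aligned them to mm10 using Tophat with its default settings and deposited FPKM per gene from Cuffdiff for each library. The submitters' processing notes also name FastQC. The annotation and the use of strand are not given in the sources used here. The deposited table also holds the authors' own comparison (group means, a log2 fold change, a test score, a p-value and a q-value), which was not used. Samples were grouped by title, and 0 columns belonged to other samples. The labels give 4 control libraries, more than the study states, and all were kept.

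FPKM are not counts. The low values (under 0.1 FPKM) gave no whole reads, with at most 8.02% of genes in the fullest bin of 0.05 log2 over 21 pairs of libraries, so the depth is unknown and the number of libraries limits the precision. Between 16841 and 18113 genes had a value above 0, and no pair of libraries was identical (Pearson r 0.907 to 0.990 on log2(FPKM + 1)).

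Genes with a mean of at least 0.5 FPKM were compared on log2(FPKM + 1) with limma 3.58.1 (lmFit, eBayes with trend, R 4.3.3), two-sided, with Benjamini-Hochberg adjustment over 14151 genes. The script was tested on simulated data. Single genes were also compared by exact permutation over the 35 ways to choose 3 of 7 libraries. Values in every library were printed for genes with an unadjusted p under 0.05 or groups that did not overlap, for genes the study names, for set feedback and target genes and for the 2 highest genes of each role. The genes, lists and tests were chosen with earlier results of these data known. Alternatives were a pseudocount of 0.1, no filter, a mean of at least 1 FPKM, quantile normalization, median centring, limma without trend, with robust empirical Bayes (statmod 1.5.0) or with array weights, a covariate for the leading digit of the mouse number, and each library left out. Gene positions, promoters and overlapping genes are from RefSeq on GRCm38.p6, the build that mm10 stands for. The last 20 bases of 43 of the 51 promoter windows matched a GENCODE M21 transcript of the gene.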

Additional observations from a re-analysis of the deposited data

Results flagged for a closer look

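Wnt5a stood out for a single control library. Its control values were 11.6, 7.59, 11.3 and 12.1 FPKM, and the gap between WT_116 and the next value was 0.846 of the control range on the log2(FPKM + 1) scale. Without WT_116 the log2 difference of Wnt5a was -0.24. This was 1 of the 19 genes examined for such a gap among the 4 control values, and chance gives about 1 in 20.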

How the results depend on the processing

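Wnt7b and Sfrp4 kept their direction and an unadjusted limma p under 0.05 under all alternatives run in limma, and Sfrp4 and Sfrp2 missed it in the exact permutation test. The number of lower genes among the 41 was 3 in the main fit and 5 with array weights (Nkd1 and Wnt2b joined). It was 2 to 5 with each library left out, with 5 without KO_117 (Nkd1 and Wnt7a joined). The number of higher genes among the 41 was 0, and 2 with the cell cycle covariate (Fzd9 and Tcf7l2) and 0 to 1 with each library left out (Lrp5 without KO_218). Without a filter, 62 genes of the Wnt list were tested, and 4 were lower (Wnt2 joined) and 1 higher (Dkk1). Wnt2 and Dkk1 are outside the 41. Of the other pathway genes, 1 was lower, and 0 with median centring, 2 with robust empirical Bayes, 10 with array weights, 4 with the cell cycle covariate and 0 to 7 with each library left out (0 without WT_215, WT_213 or WT_220, 3 without WT_116, 7 without KO_117). The number higher was 1, and 2 with median centring or the cell cycle covariate and 1 to 2 with each library left out. Counts over all genes tested moved as well. Lower were 141 of 14151 in the main fit, 887 with array weights and 371 with the cell cycle covariate. With each library left out 70 to 410 were lower, the most without KO_117. Higher were 71 in the main fit, 181 with the cell cycle covariate and 45 to 354 with each library left out. Without a filter, 201 of 19643 genes were lower and 140 higher. Array weights stopped before full convergence. The cause of these shifts was not tested. Log2 differences near 0 changed sign. With median centring Znrf3 was 0.0245 and Axin1 0.0112. With a pseudocount of 0.1 Znrf3 was 0.0014 and Dkk3 -0.0193, and with the first digit of the mouse number Znrf3 was 0.0047. With array weights Fzd1 was -0.45, Dkk3 -0.0282 and Tcf7l1 -0.16. With the cell cycle covariate Axin2 was 0.21, Znrf3 0.13, Axin1 0.0582, Dkk3 -0.24 and Wls -0.15. With each library left out, Axin2 ranged from -0.59 to 0.37, Tcf7 from -0.0173 to 0.30, Znrf3 from -0.26 to 0.19, Axin1 from -0.29 to 0.19, Fzd1 from -0.38 to 0.29, Dkk3 from -0.50 to 0.61 and Wls from -0.38 to 0.98. Of the values of named genes under the alternatives, 295 kept their direction and side of the threshold, 36 changed sign, 6 lost the threshold and 4 gained it. No gene passed adjustment in limma under any alternative except 1 gene, outside the Wnt list, without KO_214 and 1 without KO_218.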
